A study of Mus musculus with 6 samples.

Results

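Macrophages of the mouse pancreas on day 3 after caerulein were set against macrophages of mock mice. Caerulein is a cholecystokinin analogue that drives acinar cells to digest their own tissue and so gives a sterile, self-limiting pancreatitis. The day 3 pool came from wild type Balb/c mice that had 10 hourly injections of caerulein and were killed 3 days after the first one. The mock pool came from wild type Balb/c mice of the same study, which the design text describes as injected with saline and the sample label as untreated. Both pools were of more than 3 mice and gave 1 library each, and no age or sex of the mice was given in the labels used here. Cells were enriched on CD45.2 beads and sorted as CD45+CD11b+F4/80+, that is, as leukocytes with the integrin CD11b and the macrophage surface protein F4/80. The comparison uses 2 of 6 libraries, and the other 4, from caerulein mice on days 1, 4, 5 and 7, are shown where they place day 3 in the time course. The day 3 library held 25726455 reads and the mock library 17598031, and the other 4 held 14853084 to 17905449. Values are normalised read counts, that is, reads per gene divided by 1 factor per library. Of 31617 genes, 10000 were compared, taken by their mean over the 6 libraries from the highest down to 74.1. The log2 ratio is that of day 3 over mock after adding 17.8 normalised counts to both, which understates the ratio of genes with few reads. A gene counts as higher or lower from 2-fold, a log2 ratio of 1 or -1. With 1 pool a side a difference has no replicate check and no p-value, so sizes are given with 95% Clopper-Pearson intervals of the ratio of reads, taken without the added counts. These cover counting error only, not the spread between mice or pools, and reached 0.17 to either side of their middle at the median gene. A list is described by its members among the 10000 genes, and a listed gene under the filter is not counted unless stated.

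Macrophages of an injured tissue are a mixture of cells that lived there before and cells newly made from blood monocytes. Resident cells carry scavenging receptors such as Timd4 and Lyve1, and classical monocytes carry Ly6C and lose it as they become macrophages. Macrophages can divide in place under colony-stimulating factors, and division runs through licensing of replication origins, DNA synthesis and mitosis, each with its own set of transcripts. Interferons act through STAT proteins and IRF9 on genes that restrict viruses and present antigen, and their targets also respond to the low level of interferon that healthy tissue makes. Macrophages that take up dead cells and lipid are known for Trem2, Gpnmb, Spp1 and lysosomal proteases.

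The genes of the sort were present in both libraries. Ptprc, which encodes CD45, had 11870.5 in mock and 12626, 7282, 9425, 11351 and 11553 on days 1, 3, 4, 5 and 7. Itgam, which encodes CD11b, had 1900.4 in mock and 2627, 1409, 678, 687 and 1097 on days 1, 3, 4, 5 and 7. The F4/80 gene Adgre1 had 11750.1 in mock and 10592, 12632, 11541, 23702 and 9671 on days 1, 3, 4, 5 and 7. Their log2 ratios were -0.70, -0.43 and 0.10, so none of the 3 reached 2-fold, and the sign for Adgre1 turns to -0.0042 if both libraries are scaled to equal totals. Of 18 macrophage core genes, 17 lay within 2-fold and the median was 0.23. The exception, the tetraspanin Cd63, had 15662 on day 3, against 6765 in mock. The receptor for macrophage colony-stimulating factor, Csf1r, differed by 0.02 and the lysozyme gene Lyz2 by 0.14. In RNA from a pool of cells, fewer cells of a type and less RNA per cell cannot be told apart, and this holds for each result that follows.

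Of the 10000 genes, 373 (3.73%) were higher on day 3 than in mock and 571 (5.71%) were lower, and the median log2 ratio was 0.08. The interval lay wholly past 2-fold for 264 of the higher and 504 of the lower genes. Large ratios were mostly lower values on day 3, since 45 genes were higher by 4-fold or more and 210 lower. The day 3 value was the highest of the 6 libraries for 1942 genes (19.4%) and the lowest for 1557 (15.6%). It stood at least 2-fold above each of the other 5 libraries for 159 genes (1.59%) and at least 2-fold below each for 25 (0.25%). A count test by edgeR that borrowed its spread from days 1, 4, 5 and 7 called 0 genes in either direction after adjustment, and 53 higher and 95 lower at an unadjusted p under 0.05. Differences between those days enter that spread, so a lack of calls does not show that day 3 and mock were alike. The percentages over the 10000 genes are the background for lists counted among those genes. Counts given over every listed gene in the file include genes under the filter, so these percentages are no background for them. Of the higher genes 236, and of the lower genes 350, are in none of the lists.

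**Figure D1:**
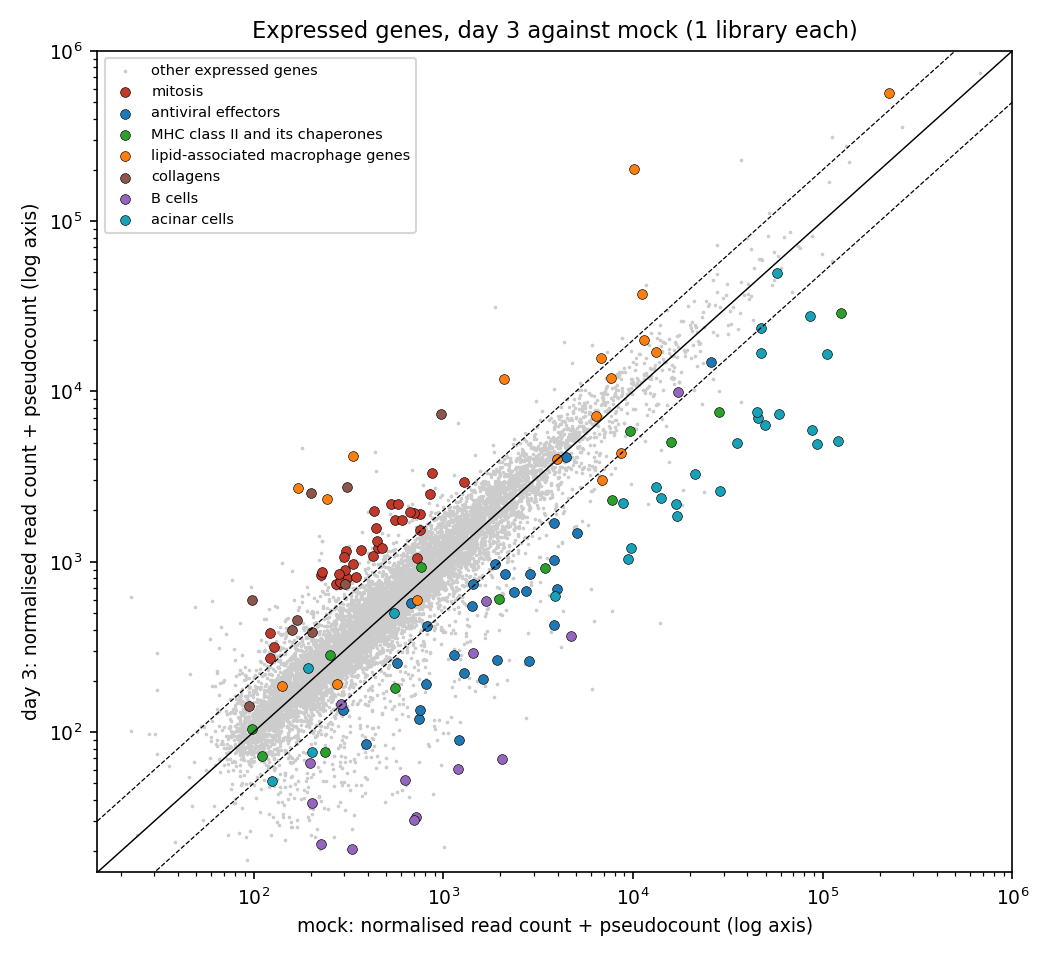
Normalised read count plus pseudocount on day 3 (vertical, log axis) against mock (horizontal, log axis), each point 1 of the 10000 genes, with 7 lists coloured, a solid line at equal values and dashed lines at 2-fold. Mitosis genes, collagens and lipid-associated genes lie mostly above the solid line, and B cell, acinar and antiviral genes mostly below it, with 210 genes lower by 4-fold or more and 45 higher.

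The highest ratio belonged to Htr2b (ENSMUSG00000026228), a serotonin receptor that macrophages can express. It had 4.77 in mock and 335, 604, 458, 53.0 and 11.8 on days 1, 3, 4, 5 and 7. The mock value rested on 5 reads, and the log2 ratio was 4.79 with the added counts and 5.75 to 8.61 by the interval without them. Spp1 (ENSMUSG00000029304), which encodes osteopontin, had 10118 in mock and 142280.0, 202196, 31164, 8256 and 4619 on days 1, 3, 4, 5 and 7, a log2 ratio of 4.32. Clu (ENSMUSG00000022037), which encodes the secreted chaperone clusterin, had 1849 in mock and 3537, 31129.6, 2456, 412 and 2771 on days 1, 3, 4, 5 and 7. The day 3 value of Clu was more than 8-fold above each other library, and its log2 ratio over mock was 4.06. Syngr1, which encodes a vesicle membrane protein, had 154 in mock and 2179, 2699, 4231, 1929 and 395 on days 1, 3, 4, 5 and 7, a log2 ratio of 3.99. The other 11 of the 15 highest ratios were 3.64 for Gpnmb, 3.25 for the fatty acid carrier Fabp5, 3.23 for the cysteine dioxygenase Cdo1 and 2.94 for Olfml3. They were 3.65 for Col1a1, 3.14 for Col1a2 and 2.92 for Col3a1, which encode fibrillar collagens. They were 3.35 for Postn, 3.27 for Mfap5 and 2.87 for Bgn, which encode matrix proteins of fibroblasts, and 3.45 for Krt19, a keratin of duct cells. Of these 15 genes, 7 are thus known mainly from fibroblasts or duct cells. The part of other cells in the values of the rest, Clu and Spp1 among them, was not tested.

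The lowest ratio belonged to Retnla (ENSMUSG00000061100), which encodes the secreted protein RELM-alpha of alternatively activated macrophages. It had 6038 in mock and 881, 162, 2197, 3041 and 6402 on days 1, 3, 4, 5 and 7. The log2 ratio was -5.07 (interval -5.42 to -5.03). Timd4 (ENSMUSG00000055546), the phosphatidylserine receptor of resident macrophages, had 2704 in mock and 329, 103, 142, 546 and 1234 on days 1, 3, 4, 5 and 7, a log2 ratio of -4.50. Ifit3b, an antiviral effector, had 1197 in mock and 7239, 72.5, 110.0, 3506 and 525 on days 1, 3, 4, 5 and 7, a log2 ratio of -3.75. Most others of the 15 lowest were genes of other cells. The log2 ratios were -4.88 for Cd79a, -4.52 for Fcmr, -4.30 for Ms4a1 and -4.00 for Fcer2a, which are B cell genes. Pnlip (-4.55), Cel (-4.25) and Cela1 (-3.88) encode acinar enzymes, Ngp (-4.36) a neutrophil granule protein and Gzma (-3.91) a granzyme of killer lymphocytes. Also among the 15 were Gal, which encodes the peptide galanin (-3.99), and Lars2, the mitochondrial leucyl-tRNA synthetase (-4.98).

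Genes of mitosis were higher on day 3 than in mock. Of 34 mitosis genes, 33 passed 2-fold upward and 0 downward. Their median log2 ratio was 1.55, beside 3.73% higher and a median of 0.08 over all genes. All 34 had their highest value of the 6 libraries on day 3, beside 19.4% of all genes, and 31 stood at least 2-fold above each other library, beside 1.59%. Ccnb1, which encodes cyclin B1, the partner of Cdk1 at entry into mitosis, had 413 in mock and 46.8, 1971, 104, 72.8 and 187 on days 1, 3, 4, 5 and 7. Cdk1 itself had 512 in mock and 83.7, 2159, 171, 167 and 185 on days 1, 3, 4, 5 and 7. Ube2c, the ubiquitin-conjugating enzyme that works with the anaphase-promoting complex, had 558 in mock and 66.5, 2158, 116, 68.6 and 205 on days 1, 3, 4, 5 and 7. In each of these 3 genes day 1 was lowest, mock came next to day 3, and day 3 was more than 3-fold above every other library. The log2 ratios over mock had intervals of 2.11 to 2.41 for Ccnb1, 1.94 to 2.21 for Cdk1 and 1.82 to 2.08 for Ube2c. The proliferation marker Mki67 had 738 in mock and 77.5, 1527, 329.9, 149.8 and 361 on days 1, 3, 4, 5 and 7, a log2 ratio of 1.03. The one mitosis gene within 2-fold was Kif23, a kinesin of the dividing midbody (0.52).

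The earlier steps of the cycle differed less. Of 18 genes that license replication origins, 5 were higher and 0 lower (median 0.82), and all 18 had their highest value on day 3. The leading member was Cdc45, a subunit of the replicative helicase, with 495 on day 3, against 174 in mock. Mcm2, a subunit of the same helicase, had 945 in mock and 453, 1297, 177, 428 and 742 on days 1, 3, 4, 5 and 7, a ratio of 0.45. Of 21 DNA synthesis genes, 8 were higher and 0 lower (median 0.95), and 20 were highest on day 3. Rrm2, a subunit of the enzyme that makes deoxynucleotides, had 2818 on day 3, against 769 in mock (1.85), and the thymidine kinase gene Tk1 had 2564 on day 3, against 794 in mock (1.67). The sliding clamp gene Pcna had 3953 on day 3, against 2696 in mock, which is within 2-fold.

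The regulators of entry into the cycle did not move as 1 group. Of 17 G1 cyclins, kinases and inhibitors, 2 were higher and 2 lower (median 0.22). Cdkn2c, which encodes the inhibitor p18 of Cdk4 and Cdk6, had 299 in mock and 38.1, 1219, 197, 126 and 151 on days 1, 3, 4, 5 and 7. Ccne1, which encodes cyclin E1, had 419.8 on day 3, against 164 in mock (1.27). Ccnd2, which encodes cyclin D2, had 2129 in mock and 3198, 504, 445, 796 and 1535 on days 1, 3, 4, 5 and 7, a log2 ratio of -2.04, and the growth regulator Myc had 1011 on day 3, against 2188 in mock (-1.10). Higher mitotic transcripts thus stood beside lower Ccnd2 and Myc. Of 10 genes listed as colony-stimulating factors and receptors, 1 was higher, Il4ra, with 2423 on day 3, against 1085 in mock. Il4ra encodes a receptor for interleukin-4 and not for a colony-stimulating factor. The macrophage growth factor Csf1 differed by -0.66. Of 6 regulators linked to macrophage self-renewal, 0 were higher and 2 lower, Myc and the transcription factor Klf2 (-1.63).

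The mitosis genes also share promoter sequence. The search used RefSeq promoters of GRCm38.p6, 250 bases before to 50 after each annotated start, read on both strands. The motif TTTGAA, known as the cell cycle homology region, was found for 20 of the 29 mitosis genes with a promoter in the table (69.0%), and for 20.2% of all 27025 genes in it. The motif CCAAT was found for 22 of 29 (75.9%), and for 41.1% of all genes. For replication licensing, GCGGGAAA or GCGCCAAA, forms of the E2F motif that contain none of the other motifs searched, was found for 7 of 13 genes (53.8%), and for DNA synthesis for 5 of 19 (26.3%), beside 1.80% of all genes. A match describes letters only and does not show that a factor binds there. Shown here, with TTTGAA or its complement TTCAAA in capitals, are 100 bases each of the promoters of the 3 mitosis genes with the largest ratios that hold the motif and were in the table, 5′ to 3′ on the gene's strand. The motif starts 71 bases before the start site in Cdk1, 29 before it in Ube2c and 33 after it in Aurka, which encodes the spindle kinase Aurora A. The Cdk1 stretch lies on the minus strand at chr10:69352931-69353030, that of Ube2c on the plus strand at chr2:164769853-164769952, and that of Aurka on the minus strand at chr2:172370521-172370620.
Cdk1: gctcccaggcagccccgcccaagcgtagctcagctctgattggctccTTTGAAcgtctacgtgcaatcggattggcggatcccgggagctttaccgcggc
Ube2c: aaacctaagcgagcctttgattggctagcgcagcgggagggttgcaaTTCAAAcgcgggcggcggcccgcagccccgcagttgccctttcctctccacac
Aurka: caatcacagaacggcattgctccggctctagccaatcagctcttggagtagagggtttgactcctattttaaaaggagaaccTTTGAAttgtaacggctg

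Any dividing cell expresses these genes, and markers of other cell types were higher in the same library. The summed level of the 17 collagen genes listed was 15951 on day 3, against 2540.3 in mock, and that of the 18 duct and other epithelial markers was 5118 on day 3, against 1962 in mock. T cell markers summed to 863 on day 3, against 5091 in mock, and B cell markers to 11469 on day 3, against 31419 in mock. Their median log2 ratios were -2.55 for T cells and -3.47 for B cells. The part of other cells in the division genes was not tested.

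**Figure D2:**
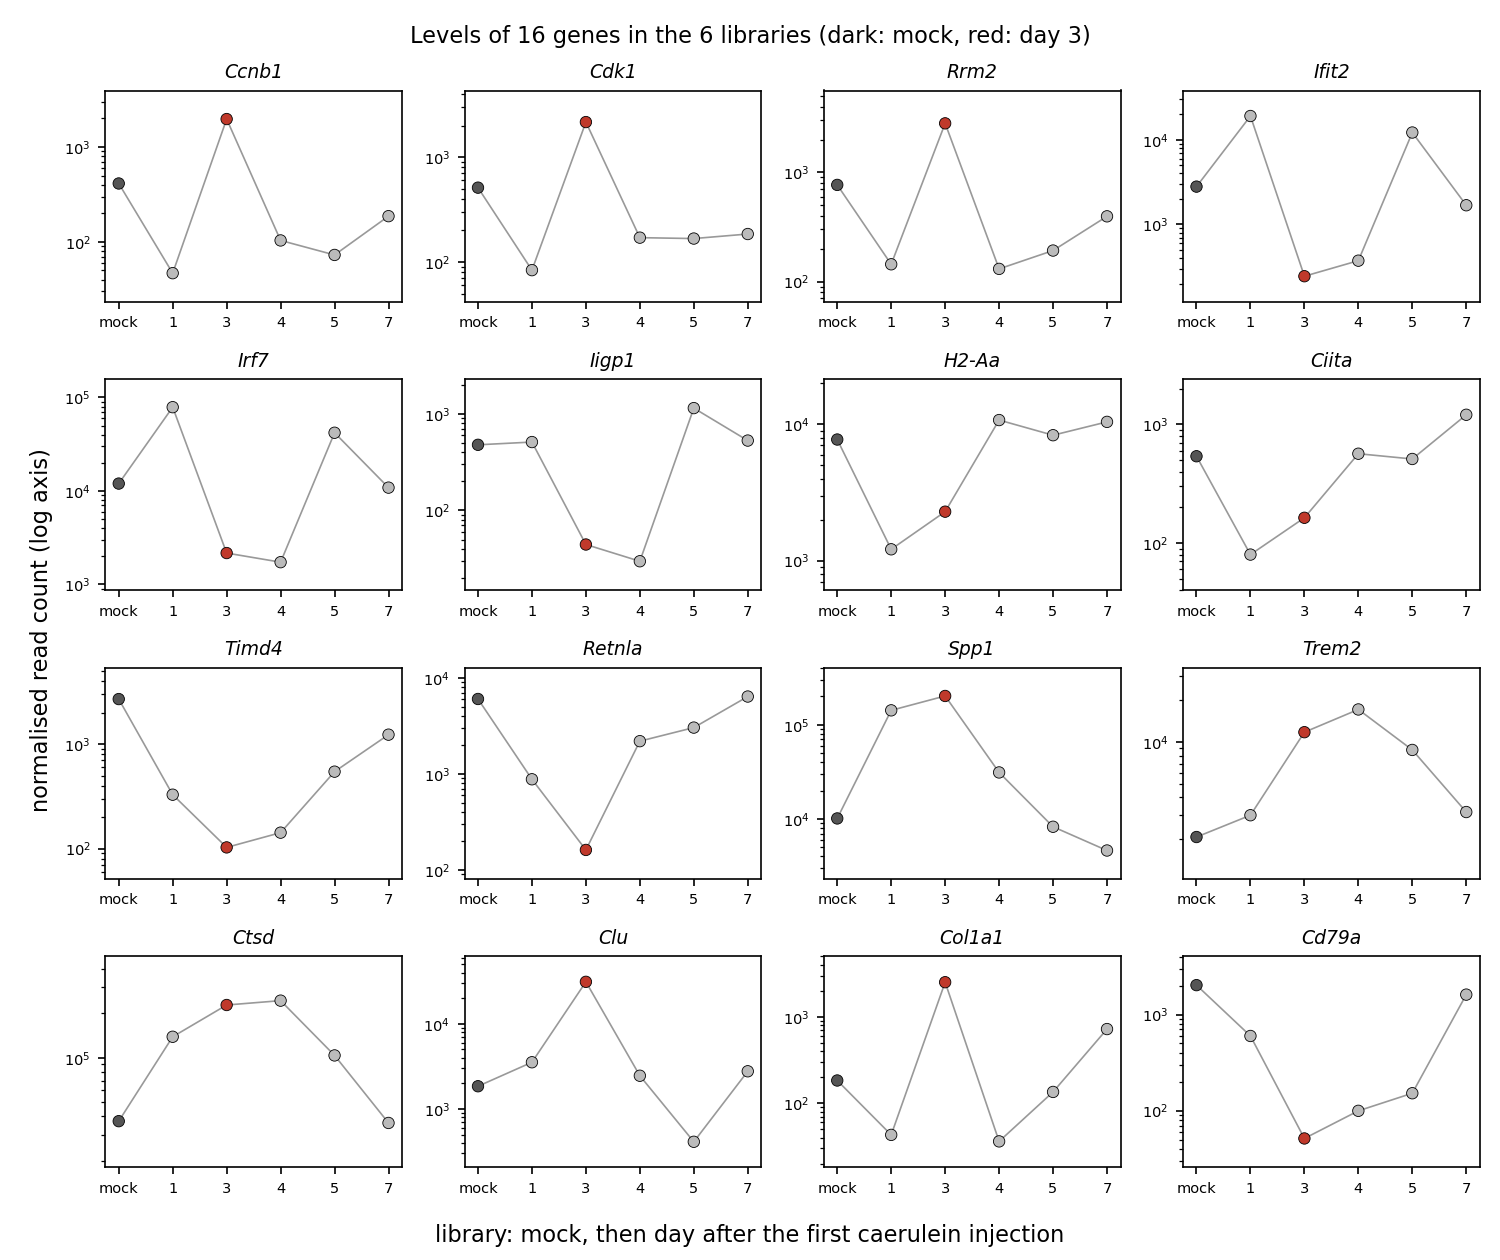
Normalised read count (vertical, log axis) of 16 genes in the 6 libraries, from mock through days 1, 3, 4, 5 and 7 (horizontal), each point 1 library, with day 3 in red and mock dark. Ccnb1, Cdk1, Rrm2, Clu and Col1a1 peak on day 3, while Irf7, Retnla, Timd4 and Cd79a are lower on day 3 than in mock.

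Genes for making protein and for respiration had ratios above 0 nearly throughout, most of them under 2-fold. Of 80 cytosolic ribosomal protein genes, 78 had a ratio above 0 and the median was 0.69, while 2 passed 2-fold. For 68 of the 80 the day 3 value was the highest of the 6 libraries. Rps21, a protein of the small subunit, had 196 on day 3, against 63.0 in mock (1.40). Of 76 nuclear genes of the respiratory chain and its ATP synthase, 76 had a ratio above 0, 7 were at least 2-fold higher, and 63 were highest on day 3 (median 0.80). Ndufa4, a subunit of cytochrome oxidase, had 2146 on day 3, against 903 in mock (1.23), and Uqcr11, a subunit of complex III, had 882 on day 3, against 369 in mock (1.22). The 75 mitochondrial ribosomal protein genes had a median of 0.54, with 1 higher, Mrpl34 (1.21). The 34 proteasome subunits had a median of 0.36 and 0 past 2-fold. The 10 mRNAs of the mitochondrial genome had a median of 0.07, which turns to -0.039 with equal library totals and to -0.0086 when centred on the median gene. The mRNAs that mitochondria encode all lay within 2-fold, with ratios of -0.14 for mt-Co2 to 0.31 for mt-Cytb. Scaling to equal totals moves the median of all genes to -0.03, so list medians close to 0 change sign with the scaling.

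Interferon-inducible genes were lower on day 3 than in mock. Of 28 antiviral effectors, 22 passed 2-fold downward and 0 upward. Their median log2 ratio was -1.86, beside 5.71% lower and a median of 0.08 over all genes. For 15 of the 28 the day 3 value was the lowest of the 6 libraries, beside 15.6% of all genes. Ifit1, which binds viral RNA caps, had 1593 in mock and 9785, 188, 197, 3081 and 644 on days 1, 3, 4, 5 and 7. Rsad2, which encodes viperin, had 1896 in mock and 12309, 247, 243, 2404 and 529.6 on days 1, 3, 4, 5 and 7. Isg15, a ubiquitin-like modifier, had 1119 in mock and 7591, 266, 163, 1623 and 378 on days 1, 3, 4, 5 and 7. The intervals were -3.27 to -2.90 for Ifit1, -3.11 to -2.78 for Rsad2 and -2.24 to -1.90 for Isg15, so counting error alone leaves all 3 past 2-fold. In each, days 3 and 4 were the lowest libraries and day 1 the highest. The members within 2-fold included Eif2ak2, the kinase PKR (-0.24), Ifitm3, which blocks viral entry (-0.79), and the RNA-editing enzyme Adar (-0.97). Ifi27l2a differed by -0.11.

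The GTPases that interferon gamma induces were lower as well. Of 15 guanylate-binding proteins and immunity-related GTPases, 15 were at least 2-fold lower (median -2.22), and 13 were lowest on day 3. Over all 19 listed in the file, 17 were at least 2-fold lower. Gbp4 had 812 in mock and 875, 67.6, 82.8, 577 and 1182 on days 1, 3, 4, 5 and 7. Iigp1, which acts on vacuoles that hold pathogens, had 479 in mock and 512, 44.4, 29.8, 1151 and 530.4 on days 1, 3, 4, 5 and 7. Gbp5, the member with the smallest difference, had 35.2 on day 3, against 116 in mock (-1.33). Gbp, Ifit and Tgtp genes have near-identical copies between which reads may have been split, so the values of single members such as Tgtp1 and Tgtp2, Ifit3 and Ifit3b are uncertain.

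The signal chain above these genes was lower in part. Of 10 STAT and SOCS genes, 3 were lower. Stat2, which carries the type I interferon signal, had 1665 in mock and 4994, 480.3, 559, 4109.9 and 2122 on days 1, 3, 4, 5 and 7, a log2 ratio of -1.76, and the feedback inhibitor Socs1 had 233 on day 3, against 558 in mock (-1.20), while Stat3 and Stat6 differed by -0.13 and -0.38. Of 8 interferon regulatory factors, 2 were lower. Irf7, which amplifies type I interferon, had 11969.8 in mock and 78765, 2159, 1723, 41923 and 10833 on days 1, 3, 4, 5 and 7, a log2 ratio of -2.46, and Irf4 had 64.1 on day 3, against 283 in mock (-1.88). Irf8, a lineage factor of myeloid cells, differed by 0.08. The 7 receptor and kinase genes in the comparison had a median of -0.03 with 0 past 2-fold, among them Ifnar1 (-0.03) and Ifngr1 (0.15). Of 13 sensors of foreign nucleic acid, 5 were lower, among them Ifih1, which encodes MDA5 (-1.55), and Ddx58, which encodes RIG-I (-1.34). Receptors thus lay within 2-fold while effectors, Stat2 and Irf7 were lower. The interferon genes themselves fell under the filter, which goes by the mean over the 6 libraries. Ifnb1 and Ifng had few reads on day 3. Ifnb1, which encodes interferon beta, had 222 in mock and 20.9, 10.6, 11.6, 10.4 and 1.69 on days 1, 3, 4, 5 and 7, with 15 reads on day 3, against 232 in mock (interval of the log2 ratio -5.25 to -3.64). Ifng, which encodes interferon gamma, had 109.8 in mock and 19.7, 17.6, 33.6, 66.6 and 142 on days 1, 3, 4, 5 and 7, with 25 reads on day 3, against 115 in mock (-3.33 to -2.01). NK cells and T cells are sources of interferon gamma. The 12 NK cell markers listed summed to 359.9 on day 3, against 5099 in mock, and the 19 T cell markers to 863 on day 3, against 5091 in mock. The part of these cells in the GTPase values was not tested.

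The motif GAAA, any 2 bases, then GAAA, which is the core of the element that interferon-activated factors bind, was found for 9 of 20 antiviral effectors with a promoter in the table (45.0%) and for 10 of 11 GTPases (90.9%), beside 3.99% of all genes. Shown are 100 bases of the promoters of the 3 effectors with the largest ratios that hold it, each with 2 copies, which read TTTC, any 2 bases, then TTTC on the gene's strand and stand in capitals. All 3 lie on the plus strand of chromosome 19, at chr19:34607724-34607823 for Ifit3b, chr19:34583328-34583427 for Ifit3 and chr19:34640740-34640839 for Ifit1. The copies start 188 and 154 bases before the start site in Ifit3b, 156 and 122 before it in Ifit3, and 104 and 85 before it in Ifit1. The stretches of Ifit3b and Ifit3 are identical letter for letter.
Ifit3b: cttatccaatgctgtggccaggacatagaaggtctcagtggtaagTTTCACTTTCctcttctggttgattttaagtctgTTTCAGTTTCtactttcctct
Ifit3: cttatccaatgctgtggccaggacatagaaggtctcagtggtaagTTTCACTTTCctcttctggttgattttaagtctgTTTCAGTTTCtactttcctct
Ifit1: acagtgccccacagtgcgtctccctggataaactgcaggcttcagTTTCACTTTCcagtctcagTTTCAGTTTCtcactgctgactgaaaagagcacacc

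Most MHC class II genes and some class I genes were lower as well. Of 13 MHC class II genes and chaperones, 0 were higher and 8 at least 2-fold lower (median -1.65). Cd74, the invariant chain, had 124549 in mock and 20774, 28676, 130870.0, 136059 and 197319 on days 1, 3, 4, 5 and 7. H2-Ab1, a chain of the class II molecule I-A, had 15814 in mock and 2876, 5006, 19948, 17203 and 24781 on days 1, 3, 4, 5 and 7. Ciita, the master regulator of class II genes, had 539.6 in mock and 80.0, 163, 567, 512 and 1207 on days 1, 3, 4, 5 and 7, a log2 ratio of -1.62. Day 3 was the lowest library for 0 of the 13, and Cd74, H2-Ab1 and Ciita were lower still on day 1. The general class II promoter factors Rfx5, Rfxank and Rfxap differed by 0.09, 0.15 and 0.28. CCAAT, the core of the Y box of class II promoters, was found for 9 of 9 members with a promoter, beside 41.1% of all genes. These 9 include the promoter factors Rfx5 and Rfxank, while Cd74, H2-Ab1 and Ciita had no promoter in the search. Of 20 class I and peptide loading genes, 6 were lower (median -0.83) and 12 were lowest on day 3. The class I regulator Nlrc5 had 54.9 on day 3, against 271 in mock (-1.99) and the peptide transporter Tap1 had 679.7 on day 3, against 1942 in mock (-1.49), while the light chain B2m differed by -0.22. H2-Q6 and H2-Q7 are near-identical genes whose reads may have been split. Among 10 costimulatory and checkpoint genes, Cd274, which encodes PD-L1, and Cd86 were lower (-1.65 and -1.36), and Havcr2, which encodes TIM-3, was higher (1.18).

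Cells that share class II expression were also less represented by their markers. Of 14 B cell markers, 12 were lower and 0 higher (median -3.47), with summed levels of 11469 on day 3, against 31419 in mock. Of 12 dendritic cell markers, 4 were lower (median -0.59), among them Ccr7, the chemokine receptor of migrating dendritic cells (-3.43), while Flt3, Xcr1 and Zbtb46 differed by 0.60, -0.06 and -0.55. None of the 16 B cell and 14 dendritic cell markers listed was at 0 in either library. Their part in the class II values was not tested.

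Part of the genes known from lipid-laden macrophages were higher on day 3. Of 18 lipid-associated macrophage genes, 8 were higher and 1 lower, and the median was 0.72. Trem2, a receptor for lipids and lipoproteins, had 2072 in mock and 2973, 11772, 17157, 8772 and 3135 on days 1, 3, 4, 5 and 7. Gpnmb, a lysosomal glycoprotein, had 318 in mock and 4614, 4159, 8911, 4817 and 483 on days 1, 3, 4, 5 and 7. Fabp5 had 226 in mock and 2569.6, 2304, 5755, 998 and 163 on days 1, 3, 4, 5 and 7. All 3 were highest on day 4, and on day 3 they exceeded mock by log2 ratios of 2.50 (interval 2.44 to 2.57), 3.64 (3.55 to 3.87) and 3.25 (3.16 to 3.54). Apoe, the lipid carrier apolipoprotein E, had 561567 on day 3, against 222184 in mock (1.34). The member that was lower was the fatty acid scavenger Cd36 (-1.19), and lipoprotein lipase, Lpl, differed by -0.98.

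Several lysosomal proteases were higher, while most other lysosomal genes lay within 2-fold. Of 13 cathepsins, 5 were higher and 2 lower (median 0.59). Ctsd, the aspartic protease cathepsin D, had 37171 in mock and 138599, 227422, 243415, 103621 and 36153 on days 1, 3, 4, 5 and 7, a log2 ratio of 2.61. Ctsl had 37414 on day 3, against 11146 in mock (1.75), Ctsb had 310641 on day 3, against 112024 in mock (1.47) and Ctsk, a collagen-degrading cathepsin, had 169.7 on day 3, against 43.0 in mock (1.63). The member that was lowest, Ctsw (-2.19), is a cathepsin of cytotoxic lymphocytes. Of 31 other lysosomal hydrolases and membrane proteins, 3 were higher and 0 lower (median 0.26), among them the protease gene Lgmn (1.38) and Cd63 (1.21). The 16 subunits of the vacuolar proton pump had a median of 0.32 and 0 past 2-fold. CACGTG, the core of the motif of the lysosomal regulator TFEB, was found for 7 of 26 of these hydrolases and membrane proteins (26.9%) and for 4 of 11 pump subunits (36.4%), beside 8.09% of all genes. Tfeb itself differed by -0.30.

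Lipid enzymes differed gene by gene. Of 12 genes of cholesterol efflux or targets of the sterol receptor LXR, 1 was higher and 2 lower. The desaturase Scd1 had 33.8 on day 3, against 214 in mock (-2.17), and the exporter Abca1 differed by 0.90. Of 16 cholesterol synthesis genes, 0 were higher and 1 lower, with a median of -0.30. Of 15 fatty acid oxidation and storage genes, 1 was higher, the fatty acid transporter Slc27a1, with 1001 on day 3, against 204 in mock (2.20).

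Resident macrophage genes split. Of 16, 0 were higher and 5 at least 2-fold lower (median -0.72). Besides Timd4, Lyve1, the hyaluronan receptor, had 6005 in mock and 729.8, 675, 122, 621 and 1779 on days 1, 3, 4, 5 and 7. Marco, a scavenger receptor, had 438 in mock and 61.5, 48.6, 27.2, 3.12 and 54.9 on days 1, 3, 4, 5 and 7. Cd209f, a C-type lectin, had 1636 in mock and 973, 169, 465, 608 and 760.1 on days 1, 3, 4, 5 and 7, and the lectin Fcna had 246 on day 3, against 2194 in mock (-3.07). The log2 ratios were -3.12 for Lyve1, -2.78 for Marco and -3.15 for Cd209f. In contrast to these 5, Folr2, Mrc1, Pf4 and Cbr2 of the same list differed by 0.06, -0.31, 0.17 and -0.14. Cd163, a receptor for haemoglobin, differed by -0.83.

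Monocyte genes were lower in part. Of 14, 1 was higher and 7 lower (median -1.16). Ly6c2 had 2671 in mock and 37117, 234, 106, 336 and 782 on days 1, 3, 4, 5 and 7 and Ly6c1 had 495 on day 3, against 4249 in mock, with ratios of -3.42 and -3.06. These 2 genes are near-identical, so how reads divide between them is uncertain. The non-classical monocyte gene Treml4 had 88.0 on day 3, against 409.7 in mock (-2.01). In contrast, Ccr2, the receptor through which monocytes leave the marrow, had 18326 in mock and 23258, 25880.4, 16742, 13771 and 13159 on days 1, 3, 4, 5 and 7, a ratio of 0.50, and Thbs1, which encodes thrombospondin 1, was higher (1.17). Itgal, a monocyte gene that lymphocytes share, differed by -1.87, and the T cell, B cell and NK cell markers were lower in the same library. Their part in the monocyte genes was not tested. Of 28 myeloid transcription factors, 0 were higher and 3 lower, Egr1 (-1.49), Spic (-1.27) and Egr2 (-1.08), while Spi1, Cebpa and Maf differed by 0.17, 0.55 and 0.13.

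Genes of alternative activation, which interleukin-4 and interleukin-13 induce, did not move together. Of 17, 1 was higher and 6 lower (median -0.68). Retnla was the lowest, and Mgl2, a lectin of alternatively activated macrophages and dendritic cells, had 4135 in mock and 274, 298, 1584, 1298 and 5479.8 on days 1, 3, 4, 5 and 7, a log2 ratio of -3.72. Arg1, the arginase that defines the state in mice, had 4691 in mock and 3934, 5194, 203, 115 and 278 on days 1, 3, 4, 5 and 7, and Chil3 had 6937 on day 3, against 3672 in mock (0.91). Arg1 therefore lay within 2-fold (0.15) while Retnla and Mgl2 were more than 8-fold lower. Of 15 myeloid C-type lectins, 0 were higher and 5 lower. Among 10 MS4A genes, Ms4a7, a gene of macrophages, had 4292 in mock and 17973, 19486, 40439, 43214 and 8671 on days 1, 3, 4, 5 and 7, a ratio of 2.18, and Ms4a1, which encodes the B cell protein CD20, had 43.0 on day 3, against 1182 in mock. Of 9 Fc receptor genes, 1 was higher, Fcrls (1.01), and 2 lower, the B cell genes Fcmr and Fcer2a. The classical receptors Fcgr1, Fcgr3, Fcgr2b and Fcgr4 differed by 0.09, 0.40, -0.15 and -0.67.

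**Figure D3:**
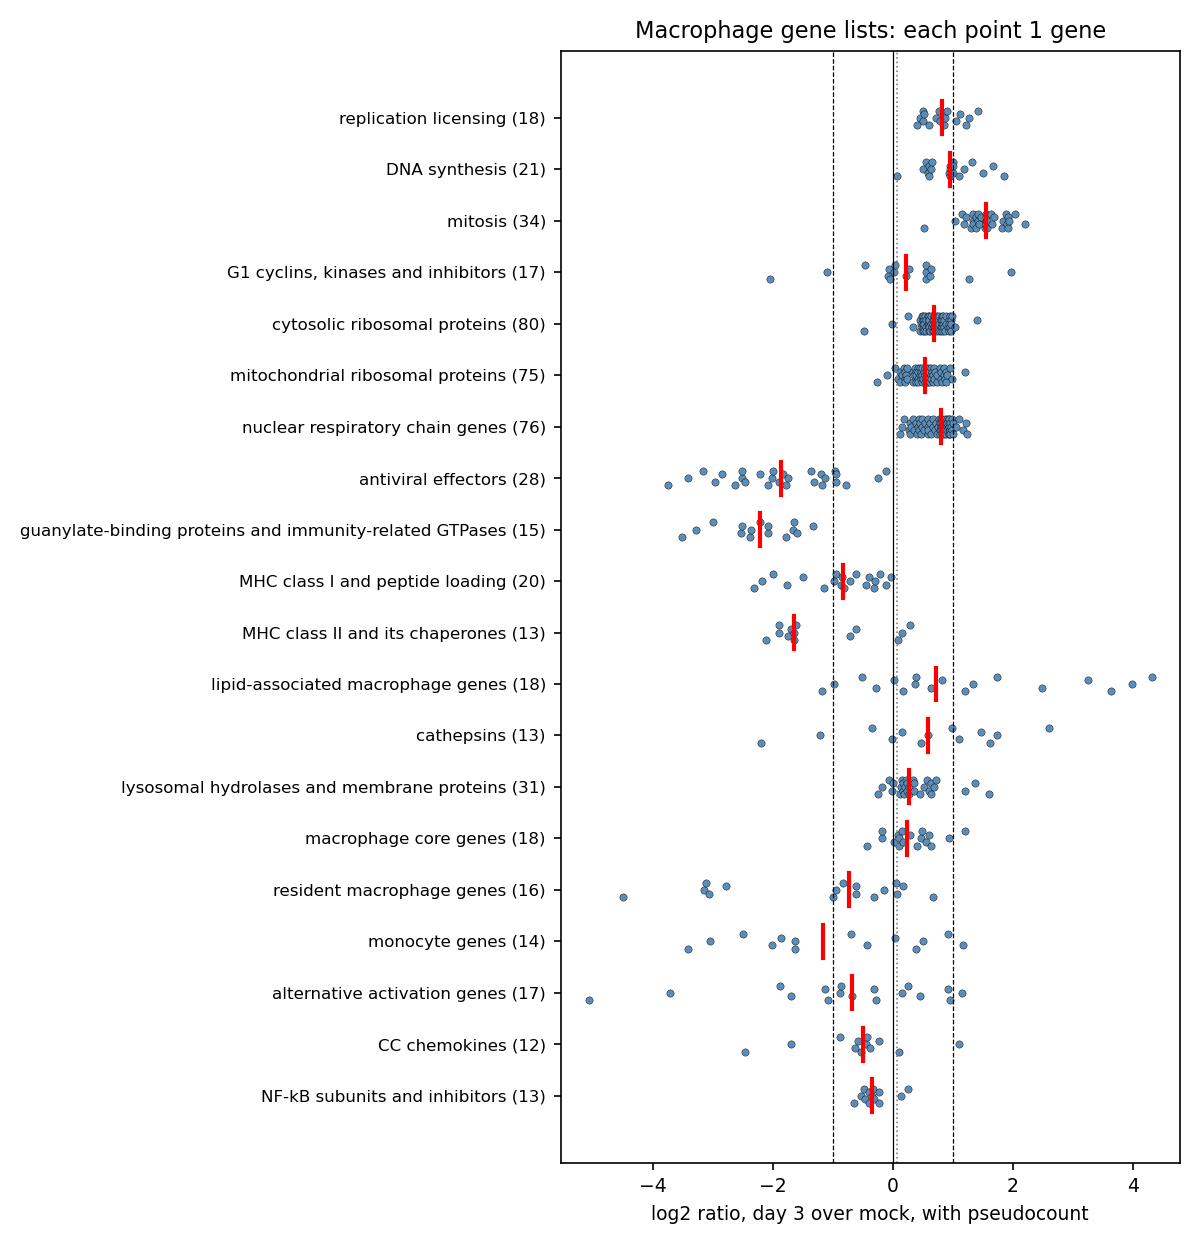
Log2 ratio of day 3 over mock (horizontal) of the expressed members of 20 lists (rows, member number in brackets), each point 1 gene and each red bar the list's median. The median of mitosis genes lies at 1.55 and that of guanylate-binding proteins and immunity-related GTPases at -2.22, beside 0.08 over the 10000 genes.

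Inflammatory cytokines were mostly within 2-fold. Of 13 IL-1 family and inflammasome genes, 0 were higher and 2 lower, Il1a (-1.07) and Casp4 (-1.20), and Il1b had 22311 in mock and 12168, 19002, 25029, 8103 and 4602 on days 1, 3, 4, 5 and 7. Of 13 TNF ligands and receptors, 3 were lower, the lymphotoxin gene Ltb (-1.64), Tnfsf10, which encodes TRAIL (-1.63), and the B cell survival factor Tnfsf13b (-1.36), while Tnf had 4987 in mock and 2392, 3369, 5073, 3501 and 808 on days 1, 3, 4, 5 and 7. Il6 had 215 on day 3, against 716 in mock (-1.66) and the anti-inflammatory cytokine Il10 had 707 in mock and 618, 1364, 611, 446 and 50.7 on days 1, 3, 4, 5 and 7 (0.93). None of the 13 NF-kB subunits and inhibitors and none of the 15 Toll-like receptors and adaptors passed 2-fold, with medians of -0.35 and -0.18. The lower interferon targets thus stood beside Toll-like receptor and NF-kB genes that lay within 2-fold.

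Chemokines differed by gene. Of 12 CC chemokines, 1 was higher and 2 lower. Ccl5, made by lymphocytes and macrophages, had 525 in mock and 127, 80.3, 93.2, 235 and 1048 on days 1, 3, 4, 5 and 7, and Ccl22, made by dendritic cells, had 30.3 on day 3, against 138 in mock (-1.69). Ccl8, made by resident macrophages, had 473 in mock and 2099, 1033, 1338, 1925 and 526 on days 1, 3, 4, 5 and 7, a ratio of 1.10, and the monocyte attractants Ccl2 and Ccl7 differed by -0.58 and -0.43. Of 9 CXC chemokines, 1 was higher and 3 lower. Cxcl13, which draws B cells, had 904 in mock and 544, 72.5, 42.7, 61.4 and 186 on days 1, 3, 4, 5 and 7, a ratio of -3.35, and the interferon target Cxcl10 had 519.8 on day 3, against 1449 in mock (-1.45). The chemokine that was higher was Cxcl14 (1.24). Of 12 chemokine receptors, 0 were higher and 5 lower, Ccr7 (-3.43), Cxcr5 (-3.02), Cxcr6 (-1.71), Ccr6 (-1.42) and Cxcr2 (-1.41), which lymphocytes, dendritic cells and neutrophils express. Cx3cr1, a receptor of tissue macrophages, differed by 0.93.

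Genes that respond within minutes to handling and stress were lower in part. Of 18 immediate early genes, 0 were higher and 3 lower (median -0.41), and day 3 was the lowest library for 7. The 3 were Fosl1 (-1.57), Egr1 (-1.49) and Egr2 (-1.08), while Dusp1 (-0.93), Jun (-0.41) and Fos (-0.10) lay within 2-fold. Of 13 heat shock genes, 2 were lower, Hspa1a (-1.27) and Hspa1b (-1.46), which are near-identical copies. The 21 genes of the unfolded protein response had 0 past 2-fold and a median of 0.05, whose sign depends on the scaling.

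Genes that act on the extracellular matrix differed in both directions. Of 14 metalloproteinases and inhibitors, 2 were higher and 3 lower. Over all 18 listed in the file, 5 were higher and 3 lower. Timp1, a secreted inhibitor of metalloproteinases, had 213 in mock and 418, 1311, 51.8, 9.36 and 18.6 on days 1, 3, 4, 5 and 7, a log2 ratio of 2.53. Mmp12, the macrophage elastase, had 1138 in mock and 167, 146, 405, 251 and 682 on days 1, 3, 4, 5 and 7, and the collagenase Mmp13 had 54.2 on day 3, against 247 in mock (-1.88). Mmp12 was therefore more than 4-fold lower on day 3 while Mmp14, the membrane-bound collagenase, differed by 0.83. Of 13 growth factor genes linked to repair, 3 were higher and 1 lower. Hgf, hepatocyte growth factor, had 120.3 in mock and 249.8, 285, 340.3, 231 and 187 on days 1, 3, 4, 5 and 7 (1.13), Gdf3 had 201 on day 3, against 65.9 in mock (1.39) and Pdgfa had 305 on day 3, against 141 in mock (1.02). Igf1 differed by -0.22 and Vegfa by 0.22. None of the 12 genes of the TGF-beta pathway passed 2-fold, with Tgfb1 at -0.51. Timp1, Hgf and Pdgfa are also fibroblast or epithelial genes, whose markers were higher in the same library, and their part in these values was not tested.

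Other macrophage functions held a few large differences. Of 14 complement genes, 3 were lower, C4b (156 on day 3, against 1444 in mock), Cd55 (-1.99) and C3 (-1.68), while the 3 chains of C1q, C1qa, C1qb and C1qc, differed by -0.35, 0.07 and -0.37. Of 18 genes for the uptake of dead cells, 1 was higher, the integrin chain Itgb5 (1.42), and 3 lower, Timd4, Cd36 and Axl (-1.73), while the receptor Mertk differed by 0.47. Of 12 iron genes, Slc40a1, which encodes the iron exporter ferroportin, had 595 in mock and 241, 127, 709, 352 and 750.0 on days 1, 3, 4, 5 and 7, a ratio of -2.08, and ceruloplasmin, Cp, had 187 on day 3, against 1186 in mock (-2.55). Of 14 eicosanoid enzymes, 4 were lower, led by the phospholipase Pla2g2d, with 2.82 on day 3, against 207 in mock (-3.45), while the cyclooxygenase gene Ptgs2 differed by 0.48. Irg1, which makes itaconate, had 739.5 on day 3, against 2867 in mock (-1.93). Of 20 glycolysis genes, 2 were lower, the glucose transporter Slc2a1 (-1.14) and the lactate exporter Slc16a3 (-1.03), and the median was -0.11.

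Adhesion and metabolic genes outside these groups differed singly. Of 11 leukocyte integrin chains, 2 were higher and 2 lower. Itga6, a laminin receptor chain, had 607 in mock and 369, 1701, 1027, 959.9 and 832 on days 1, 3, 4, 5 and 7, a log2 ratio of 1.46. Itgb7, a chain of lymphocyte homing integrins, had 1264 on day 3, against 4208 in mock (-1.72), and Itgb2, the partner of CD11b, differed by -0.71. None of the 12 arginine and polyamine genes passed 2-fold (median 0.11), with the polyamine enzyme Odc1 at -0.47. Of 14 redox and itaconate genes, 2 were lower, Irg1 and the cystine carrier Slc7a11 (-1.23), and Hmox1, which degrades haem, differed by -0.77. Of 11 clock genes, 1 was lower, Arntl, which encodes BMAL1 (-1.18). The hours at which the pools were taken were not given in the labels used here.

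Markers of cells other than macrophages differed in both directions between the libraries. Acinar markers were lower: of 27, 24 passed 2-fold downward and 0 upward (median -2.67). The 30 listed summed to 203948 on day 3, against 1022280.0 in mock. The pancreatic lipase gene Pnlip had 119710.0 in mock and 7811, 5077, 1854, 2970.1 and 111895 on days 1, 3, 4, 5 and 7. Trypsinogens have near-identical copies, so the values of Prss1 (-0.14) and Try5 (-0.21) beside those of Try4 (-2.67) and Prss2 (-1.64) are uncertain. Of 6 Reg genes, secreted proteins of injured acinar cells, 3 were lower, with Reg3d at -2.89 and Reg3b at 0.10. Lymphocyte markers were lower: 12 of 14 for B cells, 13 of 15 for T cells (median -2.55) and 8 of 8 for NK cells (median -3.55), with 0 higher in each. For 10 of the 14, 12 of the 15 and 8 of the 8 the day 3 value was the lowest of the 6 libraries. Cd79a, a chain of the B cell receptor complex, had 2019.8 in mock and 598, 51.4, 99.6, 152 and 1609.8 on days 1, 3, 4, 5 and 7. Ncr1, the NK cell receptor NKp46, had 588 in mock and 175, 28.2, 102, 395 and 1469.6 on days 1, 3, 4, 5 and 7. Of 12 neutrophil markers, 7 were lower (median -1.26, and -0.76 over the 20 listed), with S100a8 at 208 on day 3, against 608 in mock (-1.47).

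Many stromal markers and some duct markers were higher. Many of these genes had few reads, and some, such as Krt19 and Gcg, passed the filter only through their day 3 value, so counts here are over every listed gene in the file. Of 17 collagen genes, 11 were higher and 0 lower (median 1.37). Col1a1 had 183 in mock and 43.1, 2512, 36.2, 135 and 721 on days 1, 3, 4, 5 and 7. Of 21 fibroblast and stellate cell markers, 13 were higher and 0 lower (median 1.36), among them Sparc, which had 1178 in mock and 230.1, 6528, 452, 661 and 1688 on days 1, 3, 4, 5 and 7. Vim, which macrophages also express, differed by -0.35, and Dcn, the fibroblast gene for decorin, by 0.15. Of 18 duct and other epithelial markers, 7 were higher and 1 lower (median 0.91), with Epcam at 246 on day 3, against 62.1 in mock (1.72). Krt19 had 31.5 in mock and 62.8, 521, 40.1, 5.2 and 65.9 on days 1, 3, 4, 5 and 7. Of 13 endothelial markers, 1 was lower, Pecam1 (-1.09). Of 16 eosinophil, mast cell and basophil markers, 2 were lower, among them Ear2 (-2.46). Of 9 erythroid markers, 2 were higher and 0 lower (median 0.29). The 3 haemoglobin genes that passed the filter had ratios of 0.96 to 1.10, and Hba-a1 and Hba-a2 are near-identical. The islet hormone gene Gcg had 173 in mock and 17.2, 696, 51.8, 13.5 and 15.2 on days 1, 3, 4, 5 and 7, while the insulin genes Ins1 and Ins2, under the filter, had 6 and 19 reads on day 3, against 10 and 52 in mock. The share of all normalised counts on acinar markers was 1.13% on day 3, against 6.08% in mock, and that on collagens 0.0880% on day 3, against 0.0151% in mock.

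**Figure D4:**
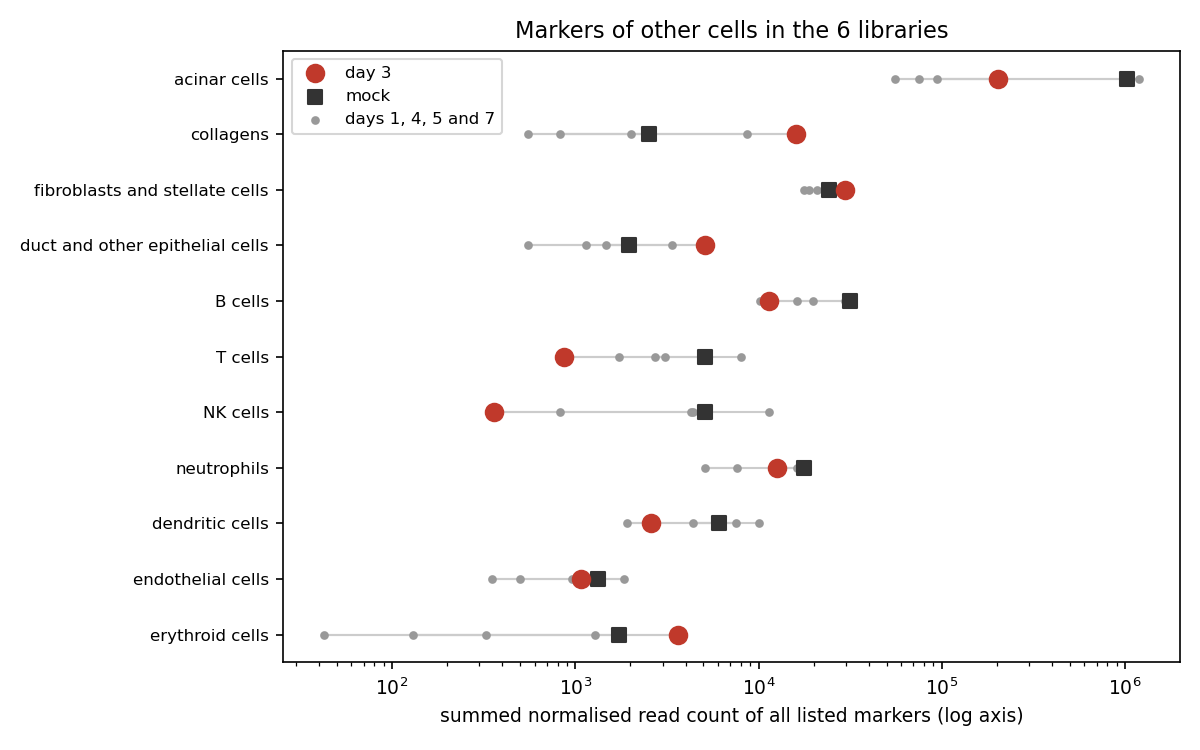
Summed normalised read count of the listed markers (horizontal, log axis) of 11 cell types (rows) in the 6 libraries, with day 3 as red circles, mock as dark squares and days 1, 4, 5 and 7 as grey points. The collagen sum is 15951 on day 3, against 2540.3 in mock, and the NK cell sum is 359.9 on day 3, against 5099 in mock.

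**Figure D5:**
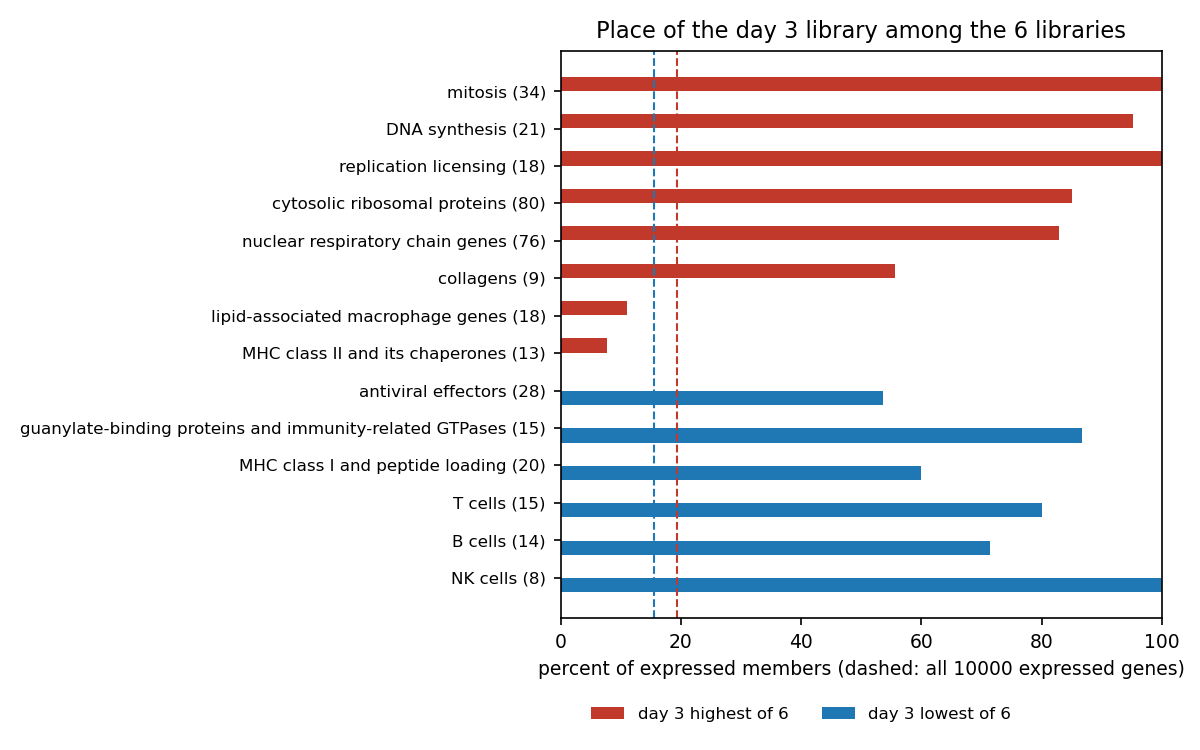
Share of the expressed members of each list (percent, horizontal) whose day 3 value is the highest or the lowest of the 6 libraries, with 1 pair of bars a list (red highest, blue lowest) and dashed lines at the shares over the 10000 genes. All 34 mitosis genes are highest on day 3, beside 19.4% of the 10000 genes. Of 15 guanylate-binding proteins and immunity-related GTPases, 13 are lowest on day 3, beside 15.6%. The filter used the mean over all 6 libraries, day 3 among them. For lists with many members under it, such as collagens (9 of 17 shown), it favours genes that are high on day 3.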

How the data were processed

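RNA was sequenced from sorted pancreatic macrophages, 1 pool of more than 3 mice a library. What was deposited is a normalised signal, which the authors made by dividing each library's gene read counts by 1 factor, as the steps between its values show: whole reads were recovered for 100% of values in every library at a tolerance of 0.01 reads. The submitters' processing notes name Bowtie 0.12.2 and the build mm8, with no role. The counter, its annotation and its use of strand are not stated in the labels, so near-identical and overlapping genes are uncertain, and no coordinates of the counted genes are given. Of 31617 identifiers, 31431 (99.4%) were in a table of mouse gene names.

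The pseudocount of 17.8 is a millionth of the mean column total, and a floor of 3 reads is worth 2.11 normalised counts on day 3 and 2.86 in mock. Named are the 15 highest and 15 lowest ratios, at most 4 members a list by size of ratio, the genes of the sort, and list members given as part of a range. Small RNAs, predicted genes, pseudogenes and antigen receptor segments were not eligible among the highest and lowest. Ifnb1, Ifng, Ins1, Ins2 and further members that lay within 2-fold were added after their values were seen, and some genes that the rule names are left out. The 75 lists and their members were chosen with earlier results of these data known, and 9 more after this comparison was seen. No test between the 2 libraries was possible. As an alternative, edgeR 4.0.16 in R 4.3.3 (quasi-likelihood, recovered reads, 14106 genes whose reads over the 6 libraries summed to 60 or more) took days 1, 4, 5 and 7 as 1 group that lends its spread, and called 0 genes at an adjusted p of 0.05. The rest was done in Python 3.11.15 with scipy 1.17.1, pandas 2.3.3, numpy 2.4.6 and, for plots, matplotlib 3.10.9, and the calculations were checked on simulated data. Promoters are RefSeq's for GRCm38.p6, matched by symbol.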

Additional observations from a re-analysis of the deposited data

How the results depend on the processing

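With the 6000 highest genes the counts were 156 higher and 298 lower, since fewer genes enter. The edgeR test called 0 higher and 0 lower over 14106 genes, and 53 higher and 95 lower at an unadjusted p under 0.05, with days 1, 4, 5 and 7 standing in for replicates. Differences between those days enter the spread of that test, so it cannot decide which genes differ. The other 9 settings kept both counts within 1.5 times. Equal library totals gave 285 higher and 661 lower, and centring on the median gene 296 and 649. Of 84 list medians, 9 changed sign. With equal totals these were mRNAs of the mitochondrial genome (-0.039), the unfolded protein response (-0.0611), uptake of dead cells (-0.0298) and metalloproteinases (-0.0436). Centred on the median gene they were mRNAs of the mitochondrial genome (-0.0086), the unfolded protein response (-0.0289) and metalloproteinases (-0.0134). With the 6000 highest genes they were Fc receptors (0.0929), the circadian clock (0.2098), CXC chemokines (0.1333) and chemokine receptors (0.3818). With no filter the islet list turned to -0.2121, since more of its genes enter than Gcg alone. Of the other medians past 2-fold, 10 moved by over 1.5 times. With the 6000 highest genes these were monocyte genes (-0.69), duct markers (2.54), collagens (3.14), fibroblast markers (0.73) and B cells (-2.30). With no filter they were duct markers (0.91), neutrophils (-0.76), erythroid (0.29), mesothelial (0.37) and CD209 genes (-1.39). With 4 times the pseudocount they were B cells (-2.25), T cells (-1.70) and CD209 genes (-2.02). Of 231 named genes past 2-fold, 21 moved by over 1.5 times and 22 lost 2-fold with 4 times the pseudocount. Under the other settings 7 lost it. The larger pseudocount lowers ratios of genes with few reads, among them Htr2b (3.15), Cdo1 (2.03), Fcer2a (-2.38), Pla2g2d (-1.91), Cxcr5 (-1.70), Ccr6 (-0.84), Tnfsf10 (-0.97) and Mmp27 (0.85). Of 324 named genes 1 changed sign, Adgre1, to -0.0042 with equal totals. No paired analysis was possible because each condition has 1 pooled library. Depth limits genes near the floor of 3 reads, and the spread between mice was not measured.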

Other observations

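The gene groups here were drawn up after the day 3 comparison had been seen, so their direction is not independent of it. Some chromatin genes that dividing cells use were higher on day 3 than in mock. Of 17 histone variants and high mobility group genes, 8 passed 2-fold upward and 0 downward, with Hmgb3 at 161 in mock and 49.2, 609, 98.3, 67.6 and 84.5 on days 1, 3, 4, 5 and 7. Some genes of the next 2 groups, such as Esco2 and Brip1, passed the filter only through their day 3 value, so every listed gene in the file is counted. Of 19 condensin and cohesin genes, 7 were higher and 0 lower. Among them the condensin core Smc2 had 586 in mock and 364, 1790.3, 301, 293 and 269 on days 1, 3, 4, 5 and 7. The general cohesin genes Rad21, Smc3 and Stag2 differed by 0.21, 0.35 and -0.27. Of 19 genes of the DNA damage checkpoint and recombination, 8 were higher and 0 lower. The kinase Chek2 was among the higher (1.36), while the kinases Atm and Atr differed by -0.33 and -0.22.

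Of 13 genes known from microglia, the macrophages of the brain, 6 were higher on day 3 and 0 lower (median 0.93). Olfml3 had 426 in mock and 794, 3395, 2227, 2940.0 and 731 on days 1, 3, 4, 5 and 7, and Tmem119 had 636 in mock and 633, 2097, 888, 2967 and 1101 on days 1, 3, 4, 5 and 7. The purine receptor P2ry12 differed by 0.77, and Sparc, also a fibroblast gene, by 2.45. The GIMAP GTPases, known from lymphocytes, were lower in 8 of 8 (median -2.66), and Gimap6 had 1203 in mock and 246, 97.2, 211, 326 and 1369 on days 1, 3, 4, 5 and 7. Of 5 CD209 lectins, 5 were lower, with Cd209b at 286 in mock and 24.6, 16.9, 232, 133 and 429 on days 1, 3, 4, 5 and 7. Over every listed gene in the file, collagen processing genes were higher in 9 of 18 and lower in 1. The collagen chaperone Serpinh1 had 123 in mock and 51.7, 961, 27.2, 70.7 and 302 on days 1, 3, 4, 5 and 7.

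A few genes stood at least 2-fold below every other library on day 3. The receptor tyrosine kinase Axl had 2229.9 in mock and 1951, 662, 2309.6, 8464 and 6337 on days 1, 3, 4, 5 and 7, and Ddx60, an interferon-inducible helicase, had 1312 in mock and 4139.8, 447, 1033, 3008 and 1104 on days 1, 3, 4, 5 and 7. Lars2, among the 15 lowest ratios, had 13854 in mock and 15459, 420.5, 23516, 7232 and 3952 on days 1, 3, 4, 5 and 7. The predicted gene Gm23935 had 6186 in mock and 7479.8, 429, 11803, 3567 and 2326 on days 1, 3, 4, 5 and 7, and the ribosomal RNA gene Rn18s-rs5 had 7753 in mock and 5770.4, 497, 6111, 5957 and 5601 on days 1, 3, 4, 5 and 7. The ribosomal RNAs of the mitochondrial genome, mt-Rnr1 and mt-Rnr2, differed by -0.06 and 0.04. How much ribosomal RNA was removed from each library is not stated in the labels, and its part in these values was not tested.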
